A study of Mus musculus with 12 samples.

Results

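Transcript levels of 10 enzymes that make serine, one-carbon units, asparagine and proline were described in 12 mouse RNA-seq libraries. The members were a named list, chosen with earlier results of these data known and found by gene symbol. Shares of members set beside shares of all genes are therefore descriptive. All 10 members were present among the 23362 genes of the count tables. Phgdh, Psat1 and Psph belong to serine synthesis and Shmt2, Mthfd2 and Mthfd1l to the mitochondrial folate pathway. Shmt1 and Mthfd1 belong to the cytosolic folate pathway, and the others were Asns and Aldh18a1. Every member passed the filter on low counts in each of the 5 comparisons, and its lowest count in any library was 317 (Asns). The libraries formed 4 groups of 3, all from C57BL/6 mice. GMP WT and GMP KO were granulocyte-macrophage progenitors of wild-type and Xbp1-deficient genotype that went straight from the sorter into Trizol, with TruSeq libraries. GATA2-GMP WT and GATA2-GMP KO were such progenitors of the same genotypes that were purified by sorting, transduced, sorted again and cultured for 48 hours, and TruSeq library construction followed amplification with the SMARTer kit for low RNA input. Transduction, time in culture and library kit therefore changed together with stage and cannot be told apart. The Xbp1 allele, the cells it is deleted in and the animals behind each replicate number are not given in the sources used here, so that p-values measure the spread between these libraries, which may be technical.

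XBP1 is the transcription factor made by the IRE1 branch of the unfolded protein response, and ATF4 is the factor that acts downstream of PERK and the other eIF2-alpha kinases. ATF4 is regulated largely through translation of its mRNA, and its best known targets include the genes for asparagine synthetase, the serine pathway and the mitochondrial folate enzymes. Serine made from a glycolytic intermediate, or taken up, gives its carbon to folate through a serine hydroxymethyltransferase, either in mitochondria, where the resulting formate is exported, or in the cytosol, where formate is used for purine, thymidylate and methionine synthesis. GATA2 is a transcription factor of the eosinophil, mast cell and basophil lineages, and the study compared XBP1-dependent expression at different stages of eosinophil development.

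Totals ran from 8219366 (GMP KO 3) to 33640911 (GMP KO 2) counts in genes per library. Levels are given as CPM, the count scaled to its library total, with library sizes scaled by TMM over all 12 libraries. Xbp1 itself had 131, 133 and 153 CPM in GMP WT against 89.8, 55.9 and 56.8 CPM in GMP KO. After transduction the WT libraries had 381, 269 and 197 CPM and the KO libraries 99.8, 121.5 and 128 CPM. No KO library reached the WT range of its stage, and GMP KO 1 lay nearest to it. By edgeR's quasi-likelihood test, the log2 fold change of Xbp1 in GMP was -1.06 (standard error 0.21, adjusted p = 0.0919). In GATA2-GMP it was -1.28 (standard error 0.27, adjusted p = 0.0959). Neither passed the threshold used for the enzymes, while DESeq2 called both lower (adjusted p = 0.000752 and 0.00179). Over the alternatives run, the highest adjusted p was 0.247 in GMP and 0.455 in GATA2-GMP. These Xbp1 levels are counts over the whole gene, and the deleted part is not named. The levels therefore do not measure how much intact transcript was left. Summed levels of 9 granulocyte-macrophage progenitor markers were 22700 to 28900 CPM in GMP and 4470 to 9150 CPM in GATA2-GMP, and those of 12 eosinophil markers were 119 to 671 CPM in GMP and 56800 to 208000 CPM in GATA2-GMP. Most of the eosinophil sum in GATA2-GMP was Prg2, at 49500 to 178000 CPM. The progenitor sum in GMP was mostly Mpo, at 16100 to 19400 CPM. Of the 9 progenitor markers, Ms4a3 and Fcgr3 rose from GMP to GATA2-GMP in both genotypes and 7 fell. Later neutrophil markers summed to 16.2 to 141 CPM in GMP and 37400 to 72700 CPM in GATA2-GMP. Mast cell and basophil markers summed to 290 to 359 CPM in GMP and 4840 to 13800 CPM in GATA2-GMP. In bulk RNA, fewer cells of a type and less RNA per cell cannot be told apart.

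Divided by exon length (CPM per kb), the order of the members differed between the stages. In GMP WT the mitochondrial hydroxymethyltransferase Shmt2 had the highest level, 96.7 ± 1.54 CPM per kb (SD, n = 3), followed by Psat1 at 51.9 ± 2.45 and the cytosolic Mthfd1 at 46.5 ± 2.07. The lowest were Psph at 16.3 ± 1.5, Mthfd2 at 15.6 ± 1.44 and Asns at 7.90 ± 0.818 CPM per kb, and Psph and Mthfd2 differed by less than their SDs. In GATA2-GMP KO the order began with Asns at 376 ± 63.8, Mthfd2 at 314 ± 16.1 and Psat1 at 190 ± 19.8 CPM per kb and ended with Mthfd1 at 17.5 ± 4.07 and Mthfd1l at 12.5 ± 1.33. The members that led in GATA2-GMP KO were thus also the leading ones in GATA2-GMP WT, where Mthfd2 had 173 ± 44.0, Asns 135 ± 57.3 and Psat1 129 ± 17.9 CPM per kb, with SDs larger than the gaps between Asns and its neighbours in that order.

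**Figure D1:**
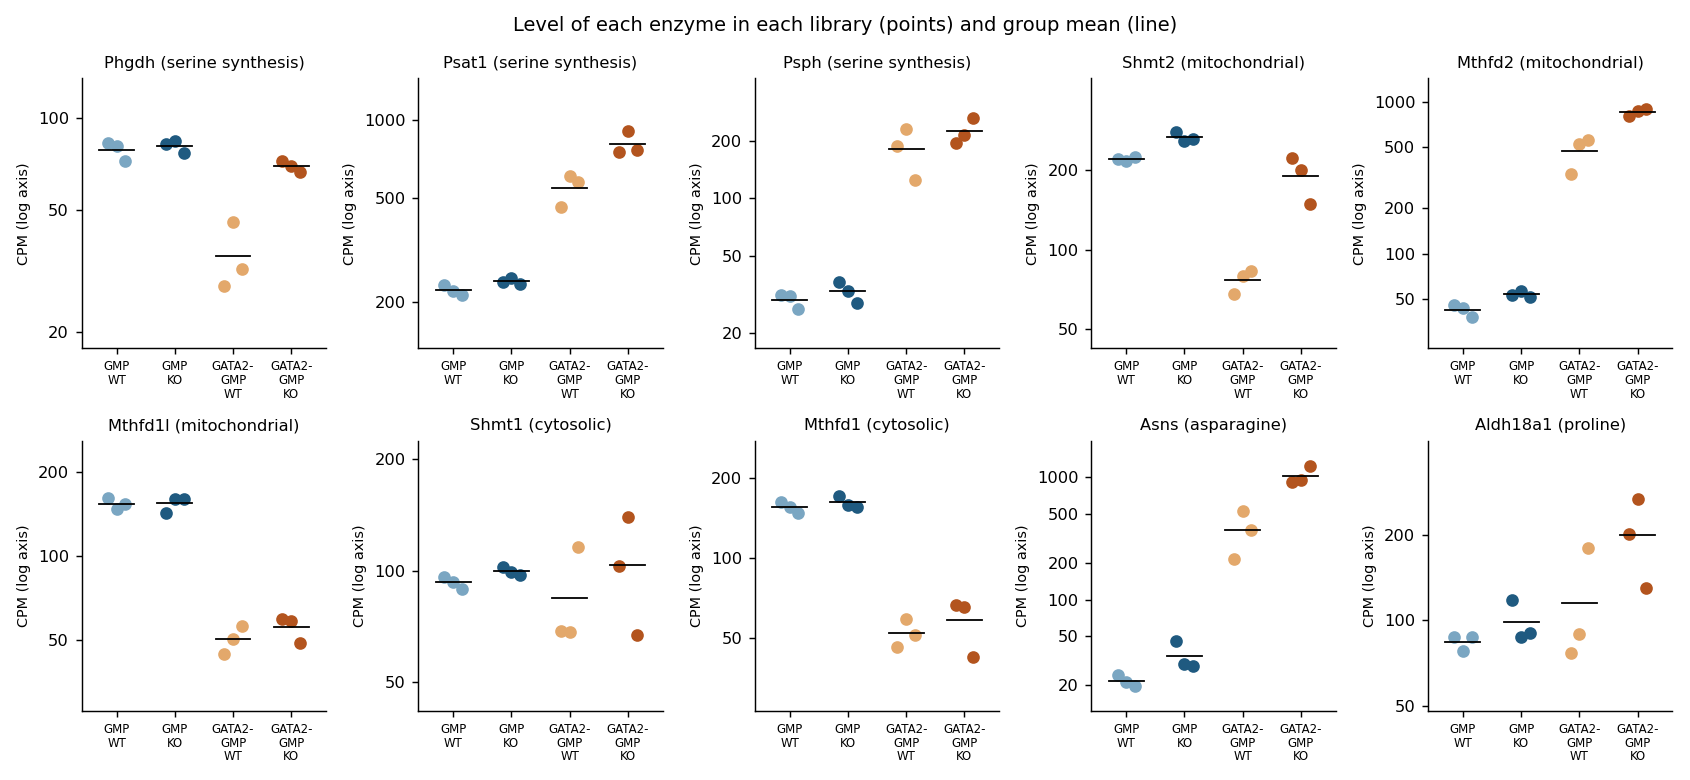
Level of each enzyme in CPM (log axis, its range set for each panel) in every library (points, replicates 1 to 3 from left to right) of the 4 groups, with the group mean as a line. Asns and Mthfd2 climb in the same order of groups, GMP WT, GMP KO, GATA2-GMP WT and GATA2-GMP KO, without overlap, while Mthfd1 and Mthfd1l are low in both GATA2-GMP groups.

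The comparison of GATA2-GMP with GMP asked how the enzymes differed between the 2 stages within each genotype. In WT cells 4 members rose, 4 fell and 2 did not pass the test, and the members of 1 pathway did not move as a block. By edgeR's quasi-likelihood test with Benjamini-Hochberg adjustment, which the adjusted p-values come from unless another tool is named, 34.1% of all genes rose and 36.4% fell in this comparison, so a share of 4 in 10 either way is near the background.

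Phgdh, the dehydrogenase that opens serine synthesis, had 82.9, 80.9 and 72.3 CPM in GMP WT and dropped to 28.4, 45.9 and 32.2 CPM in GATA2-GMP WT. The log2 fold change was -1.14 (SE 0.21, adjusted p = 0.00154). In KO cells it had 82.1, 83.8 and 76.8 CPM in GMP and 72.4, 69.8 and 66.7 CPM in GATA2-GMP. These KO groups did not overlap either, but the log2 fold change of -0.21 (SE 0.12) missed the threshold (adjusted p = 0.137). It passed without GATA2-GMP KO 3 (-0.20, adjusted p = 0.0284). The Phgdh counts are uncertain: 96.6% of its longest coding transcript also aligned to other places of the mm9 genome at 95% identity or more. Of these copies, 6 span the larger part of it. Records whose alignment was not unique stood in a counter row outside the gene counts, at 40.3 to 55.0% of records per library. How many Phgdh reads were lost to such copies was not measured. None of the other 9 members had such a copy.

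The next enzymes of serine synthesis moved the other way. Psat1, the phosphoserine aminotransferase, had 232, 219 and 211.5 CPM in GMP WT and 239, 246 and 233.5 CPM in GMP KO. After transduction it had 464, 608 and 579 CPM in WT libraries, against 753.5, 904 and 764 CPM in KO libraries. No group overlapped the next. Psat1 rose 2.50-fold in WT (log2 fold change 1.32, SE 0.17, adjusted p = 0.000223) and 3.39-fold in KO (log2 fold change 1.76, SE 0.15, adjusted p = 5.46e-06). Psph, the phosphatase that releases serine, had 26.5 to 36.8 CPM over the 6 GMP libraries and 125 to 263 CPM over the 6 GATA2-GMP libraries, and rose 6.11-fold in WT (adjusted p = 4.92e-05) and 6.86-fold in KO (adjusted p = 1.33e-06). The log2 ratio of Psat1 to Phgdh counts went from 1.49 ± 0.0553 (SD, n = 3) in GMP WT to 3.97 ± 0.224 in GATA2-GMP WT.

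Asns makes asparagine from aspartate and glutamine and had the largest stage difference among the members in both genotypes. It had 24.0, 21.2 and 19.6 CPM in GMP WT, against 212, 525 and 370.5 CPM in GATA2-GMP WT, a 17.2-fold rise (log2 fold change 4.10, SE 0.35, adjusted p = 3.12e-05). In KO cells the levels were 45.9, 29.9 and 28.4 CPM in GMP and 913, 943 and 1229 CPM in GATA2-GMP, a 29.7-fold rise (log2 fold change 4.89, SE 0.26, adjusted p = 5.77e-07). The 3 GATA2-GMP WT libraries spread widely in this gene, with replicate 1 lowest and replicate 2 highest.

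Mthfd2, the mitochondrial dehydrogenase and cyclohydrolase, followed with 45.7, 43.6 and 38.1 CPM in GMP WT, against 335, 525 and 556 CPM in GATA2-GMP WT, an 11.2-fold rise (log2 fold change 3.48, SE 0.24, adjusted p = 1.32e-05). In KO cells it went from 53.2, 56.4 and 52.1 CPM to 804, 871 and 887 CPM, a 15.9-fold rise (log2 fold change 3.99, SE 0.15, adjusted p = 1.45e-07). As with Asns, the 4 groups did not overlap.

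The mitochondrial enzymes on either side of Mthfd2 fell while it rose. Shmt2, which feeds serine carbon into mitochondrial folate, had 220.4, 217 and 224 CPM in GMP WT, against 67.8, 79.4 and 82.8 CPM in GATA2-GMP WT, and thus fell (log2 fold change -1.52, SE 0.15, adjusted p = 6.11e-05). In KO cells it had 278, 259 and 263 CPM in GMP and 222, 200.9 and 149.5 CPM in GATA2-GMP, and fell by 0.47 (SE 0.17, adjusted p = 0.0268). That call was lost without GMP KO 1 (adjusted p = 0.0773), GMP KO 2 (0.0584) or GMP KO 3 (0.0620). Mthfd1l, the mitochondrial formate-releasing ligase, had 142.5 to 162 CPM over the GMP libraries and 44.2 to 59.3 CPM over the GATA2-GMP libraries, and fell by 1.61 in WT (adjusted p = 5.07e-05) and by 1.47 in KO (adjusted p = 1.17e-05).

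In the cytosolic pathway, Mthfd1, which carries several folate activities in a single protein, stood at 148 to 171 CPM in GMP and 42.6 to 66.7 CPM in GATA2-GMP. It fell by 1.56 in WT (adjusted p = 6.20e-05) and by 1.46 in KO (adjusted p = 8.32e-05). Shmt1, the cytosolic hydroxymethyltransferase, had 89.2 to 102 CPM in GMP and 66.9 to 139.7 CPM in GATA2-GMP. Its log2 fold changes of -0.13 in WT (adjusted p = 0.618) and 0.06 in KO (adjusted p = 0.816) did not pass the test. Single libraries decided that: without GATA2-GMP WT 3, the highest of its group, the WT value was -0.34 (adjusted p = 0.00755), and without GATA2-GMP KO 3, the lowest of its group, the KO value was 0.27 (adjusted p = 0.0470).

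Aldh18a1, which starts proline synthesis from glutamate, had 87.2, 78.1 and 87.1 CPM in GMP WT, against 76.7, 89.7 and 179.6 CPM in GATA2-GMP WT, and did not pass the test in WT (log2 fold change 0.46, SE 0.31, adjusted p = 0.211). The WT groups overlapped, and GATA2-GMP WT 3 stood above its fellow libraries. In KO cells Aldh18a1 rose from 117.5, 87.6 and 90.0 CPM to 200.4, 266 and 129.5 CPM (log2 fold change 1.02, SE 0.25, adjusted p = 0.00482). In KO cells 5 members rose and 3 fell, where 38.6% and 40.0% of all genes did.

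These stage values rest on TMM scaling. With library totals alone as the scale, the median log2 fold change of all genes was -0.93 in WT and -0.73 in KO, against -0.09 and -0.05 with TMM, and the share of calls that were rises went from 48.3% to 26.8% in WT and from 49.1% to 32.9% in KO. On that scale Asns, Mthfd2, Psph and Psat1 still rose and Mthfd1, Mthfd1l and Shmt2 still fell in both genotypes. Phgdh fell in both (-0.89 in KO, adjusted p = 0.000379), Shmt1 fell in WT (-0.96, adjusted p = 0.00936), and Aldh18a1 was at -0.35 in WT and 0.37 in KO, neither past the threshold.

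**Figure D2:**
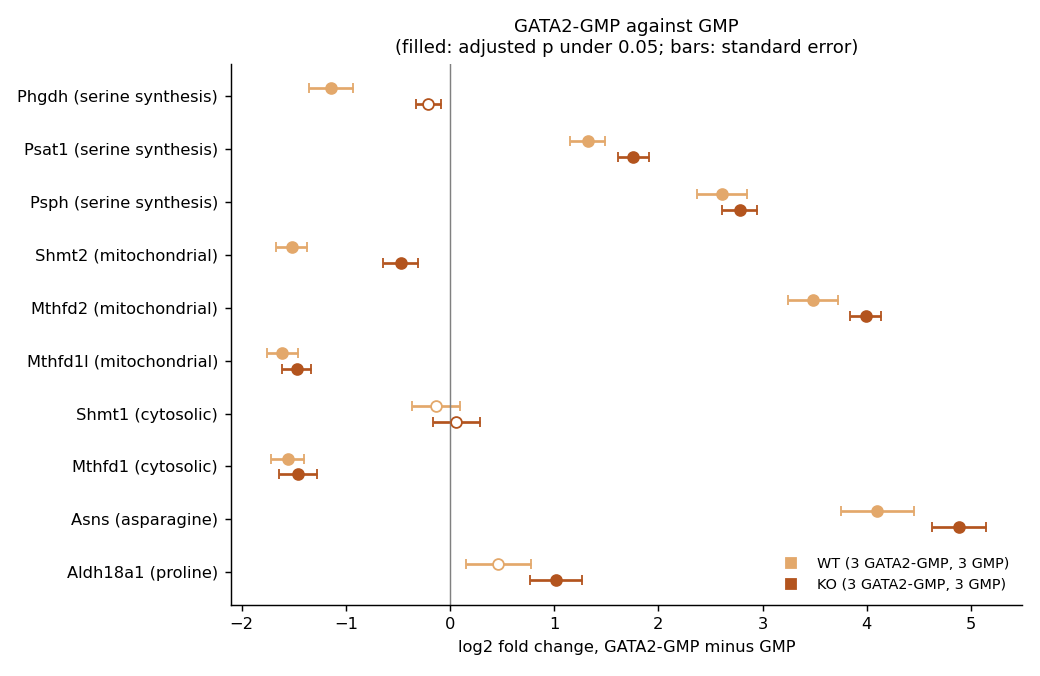
Log2 fold change of GATA2-GMP against GMP for each enzyme in WT and KO cells (points) with its standard error (bars). Filled points passed an adjusted p of 0.05, and Asns, Mthfd2, Psph and Psat1 lie to the right of 0 in both genotypes, Mthfd1 and Mthfd1l to the left.

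The comparison of KO with WT in GMP asked what Xbp1 deficiency changed in the freshly sorted progenitor. Both members that rose, Shmt2 and Mthfd2, belong to the mitochondrial folate pathway, and no member fell by edgeR, by DESeq2 or at an unadjusted p under 0.05, where 0.658% of all 12002 genes tested rose and 2.52% fell. Shmt2 was at 217 to 224 CPM in GMP WT and 259 to 278 CPM in GMP KO, and rose 1.20-fold (log2 fold change 0.26, SE 0.053, adjusted p = 0.0176). Mthfd2 was at 38.1 to 45.7 CPM in GMP WT and 52.1 to 56.4 CPM in GMP KO, and rose 1.26-fold (log2 fold change 0.33, SE 0.070, adjusted p = 0.0209). In both genes all 3 KO libraries lay above all 3 WT libraries.

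These calls were small and close to the threshold. Shmt2 missed it without GMP WT 1 (adjusted p = 0.0744), GMP WT 2 (0.0880) or GMP KO 3 (0.108). Mthfd2 missed it without GMP WT 2 (0.0578) or GMP WT 3 (0.0648), and without GMP KO 2 (0.0681) or GMP KO 3 (0.0836). In a fit over all 12 libraries, which pools the spread of both stages, neither was called (SE 0.15 for Shmt2 and 0.18 for Mthfd2). The log2 fold changes stayed between 0.24 and 0.35 in each of these fits.

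Asns had the largest log2 fold change of the members in GMP, 0.68 (SE 0.19), without passing the test (adjusted p = 0.167). Each GMP KO library, at 45.9, 29.9 and 28.4 CPM, lay above each GMP WT library, at 24.0, 21.2 and 19.6 CPM, and GMP KO 1 stood well above its fellows. Without GMP KO 1 the log2 fold change was 0.42 and passed (adjusted p = 0.0146). In GMP the replicate numbers were taken to pair the libraries from correlations in these same counts, which the labels do not state. A fit with that block is therefore not independent support for a call. With the replicate number as a block Asns was called as well (log2 fold change 0.65, SE 0.084, adjusted p = 0.000127). In that fit 3 members rose, where 3.30% of all genes did. DESeq2 also called Asns (adjusted p = 0.000236).

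Of the 10 members, 9 had a log2 fold change above 0 in GMP, with a median of 0.12, against 0.01 for all genes tested, of which 51.8% lay above 0. The exception was Mthfd1l at -0.01 (adjusted p = 0.951), which lay at 0.0279 with library totals as the scale. KO libraries lay wholly above WT libraries in 6 members (Psat1, Shmt1, Shmt2, Mthfd2, Asns and Aldh18a1), and in 11.3% of all genes. In the same libraries the summed level of the 12 eosinophil markers was 119 to 298 CPM in GMP WT and 349 to 671 CPM in GMP KO, and 3 of the 9 that could be tested had KO libraries above all WT libraries, none of them called. The 9 later neutrophil markers summed to 16.2 to 38.7 CPM in GMP WT and 38.2 to 141 CPM in GMP KO. All 8 of them that could be tested lay above 0 (median 1.95), 3 had KO libraries above all WT libraries, and Cd177 was called (log2 fold change 1.38, adjusted p = 0.00219). Ngp, Ltf, Camp, S100a9, S100a8 and Lcn2 were highest in GMP KO 1 (Ngp at 17.5 CPM, against 2.99 in GMP KO 2 and 1.97 in GMP KO 3). Mmp8 and Cd177 were highest in GMP KO 2. Among 9 mast cell and basophil markers, which summed to 329 to 359 CPM in GMP WT and 290 to 343 CPM in GMP KO, 3 of the 6 tested lay above 0 and Fcer1a was called higher (1.49, adjusted p = 0.0224), a call lost without GMP WT 1 (0.106), GMP WT 2 (0.0906) or GMP KO 1 (0.0583). Among 9 progenitor markers, which summed to 26400 to 28900 CPM in GMP WT and 22700 to 27100 CPM in GMP KO, Elane, which encodes neutrophil elastase, fell by 1.18 (adjusted p = 1.01e-05). No other progenitor marker was called, 5 of the 9 lay above 0 and their median was 0.00. Of 8 monocyte and macrophage markers tested none was called and the median was 0.18. These markers were named after their values were seen. The part of any of these cells in the GMP differences was not tested.

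In GATA2-GMP the differences between KO and WT had larger estimates and larger standard errors in each of the 10 members than in GMP. All 10 members were higher on average in KO, against 49.6% of all 11699 genes tested. Their median log2 fold change was 0.67 against 0.00 for all genes. The members were chosen with earlier results of these data known, so these shares only describe them. No member was called by edgeR, which called 44 genes in all (0.376%). Its unadjusted p was under 0.05 in 5 members (6.59% of all genes were higher at that level). DESeq2 called 4 members, Shmt2, Asns, Phgdh and Mthfd2, and 2.23% of all genes, as higher.

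Shmt2 came nearest to the threshold. The KO libraries, at 222, 200.9 and 149.5 CPM, lay well above every WT library, at 67.8, 79.4 and 82.8 CPM. The log2 fold change was 1.32 (SE 0.23), or 2.49-fold, with an adjusted p of 0.0512 by edgeR and 9.74e-06 by DESeq2. Over the alternatives run its adjusted p ranged from 9.74e-06 to 0.359. Without GATA2-GMP WT 3 edgeR called it (adjusted p = 0.0189), and in that fit edgeR called 525 genes in place of 44.

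Asns had the largest difference of the members, with 212, 525 and 370.5 CPM in WT and 913, 943 and 1229 CPM in KO (log2 fold change 1.48, SE 0.34, adjusted p = 0.118 by edgeR and 0.000905 by DESeq2). Without GATA2-GMP WT 3 its adjusted p was 0.0469 by edgeR, without any other 1 library it lay from 0.0917 to 0.357, and over all alternatives the highest was 0.384. Phgdh had 28.4, 45.9 and 32.2 CPM in WT and 72.4, 69.8 and 66.7 CPM in KO (log2 fold change 0.97, SE 0.24, adjusted p = 0.125 by edgeR and 0.00692 by DESeq2). The KO levels of Phgdh were closer to those of GMP than to those of GATA2-GMP WT, with the limit set by its genomic copies.

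Mthfd2 had 335 to 556 CPM in WT, against 804 to 887 CPM in KO (log2 fold change 0.86, SE 0.26, adjusted p = 0.177 by edgeR and 0.0195 by DESeq2). Psat1 had 464 to 608 CPM in WT, against 753.5 to 904 CPM in KO (log2 fold change 0.56, SE 0.23, adjusted p = 0.304). With Shmt2, Asns and Phgdh these made 5 members whose KO libraries all lay above the WT libraries, which 10.2% of all genes did. A fit over all 12 libraries, which pools the spread of both stages, called the same 5 as higher (Psat1 at adjusted p = 0.0282). It also called 4.66% of all genes as higher, and 1461 genes in either direction in place of 44. Its SE for Shmt2 was 0.16 in place of 0.23, and it called no member in GMP.

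The other 5 members overlapped between the genotypes. Aldh18a1 had 76.7 to 179.6 CPM in WT, against 129.5 to 266 CPM in KO (log2 fold change 0.79, SE 0.37, adjusted p = 0.366), and without GATA2-GMP WT 3 it was called (adjusted p = 0.0438), where the other alternatives gave 0.117 to 0.759. Psph had log2 fold change 0.32, Shmt1 0.30, Mthfd1 0.16 and Mthfd1l 0.15, with adjusted p-values from 0.633 to 0.813. Both cytosolic enzymes were thus in the overlapping set, as was Mthfd1l.

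Other features of these 6 libraries moved with genotype. The 12 eosinophil markers summed to 136000 to 208000 CPM in WT and, without overlap, 56800 to 68800 CPM in KO. Prg2 alone was at 121000 to 178000 CPM in WT and 49500 to 60200 CPM in KO. KO libraries lay below all WT libraries in 9 of the 12 markers, as in 12.3% of all genes. Of the 12, 2 were called lower by edgeR, as were 0.274% of all genes, and 1 lay above 0. Of the other marker lists edgeR called no gene here, and 49.6% of all genes lay above 0. Above 0 were 7 of 9 later neutrophil, 6 of 8 mast cell and basophil, 4 of 7 monocyte and macrophage and 1 of 9 progenitor markers tested. That progenitor marker was Kit, at 28.5 to 100 CPM in WT and 113 to 200 CPM in KO (log2 fold change 1.67, adjusted p = 0.162). The 10 most abundant genes of each library held 18.2 to 23.7% of counts in WT and 11.8 to 14.01% in KO. With library totals alone as the scale, the median of all genes in this comparison was 0.18 and that of the members 0.85. The proliferation list of 22 genes summed to 9340 to 11900 CPM in WT and 9880 to 10700 CPM in KO. The part of cell composition in the enzyme differences was not tested.

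**Figure D3:**
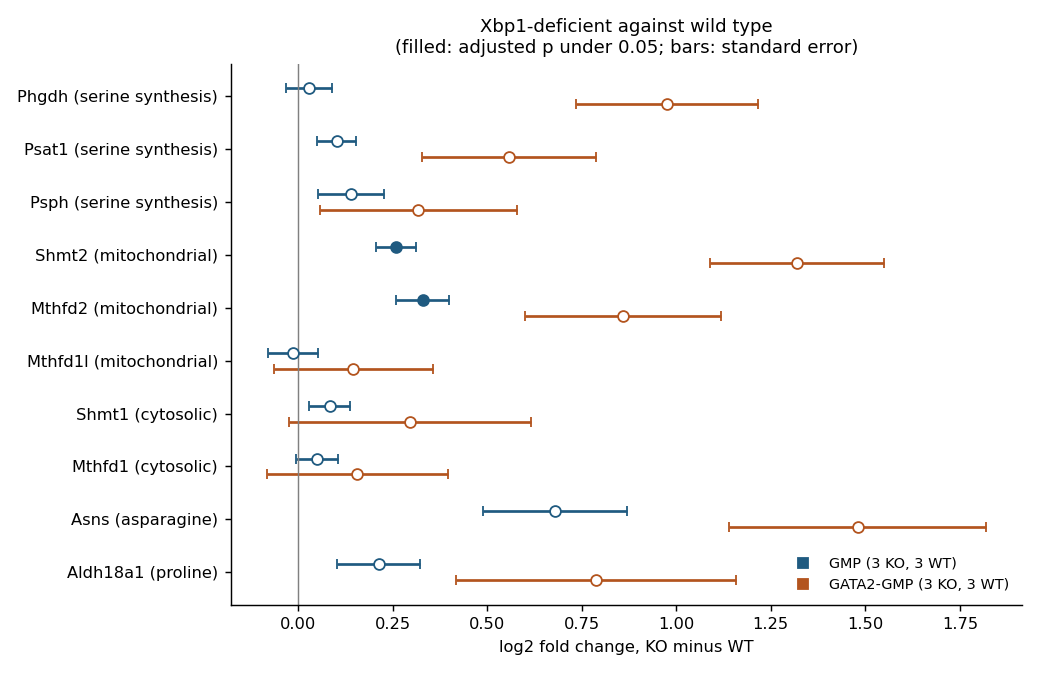
Log2 fold change of KO against WT for each enzyme in GMP and in GATA2-GMP (points) with its standard error (bars). Filled points passed an adjusted p of 0.05, which only Shmt2 and Mthfd2 in GMP did, and the GATA2-GMP values of Asns (1.48) and Shmt2 (1.32) lie farthest to the right.

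Whether the genotype difference itself differed between the stages was tested as an interaction over the 12 libraries. The estimate was above 0 in all 10 members, with a median of 0.48, against 49.0% of genes and a median of -0.01 over all genes tested. EdgeR called none of the members (0.0859% of all 12803 genes in either direction), and 2, Shmt2 and Phgdh, had an unadjusted p under 0.05 with a higher value in GATA2-GMP, as did 5.96% of all genes. For Shmt2 the difference between the log2 fold changes was 1.04 (SE 0.22, adjusted p = 0.0747) and for Phgdh 0.93 (SE 0.23, adjusted p = 0.103). DESeq2 called both (adjusted p = 4.37e-05 and 0.00951), and 1.87% of all genes as higher. EdgeR called Shmt2 without GATA2-GMP WT 3 (0.0120) or GATA2-GMP KO 3 (0.0351), and Phgdh without GATA2-GMP WT 2 (0.0251) or GATA2-GMP WT 3 (0.0380). Over all genes edgeR then called 1179 without GATA2-GMP WT 3, 28 without GATA2-GMP KO 3 and 127 without GATA2-GMP WT 2, in place of 11. For Asns the difference was 0.79 (SE 0.40, adjusted p = 0.386) and for Mthfd2 0.51 (SE 0.25, adjusted p = 0.367).

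Mitochondrial and cytosolic one-carbon enzymes were compared within each library, as the log2 ratio of summed counts of Shmt2, Mthfd2 and Mthfd1l to those of Shmt1 and Mthfd1, so that library scaling cancels. The ratio was 0.73, 0.72 and 0.81 in GMP WT, 0.79, 0.89 and 0.91 in GMP KO, 1.95, 2.36 and 2.05 in GATA2-GMP WT and 2.68, 2.46 and 3.31 in GATA2-GMP KO. The genotypes overlapped in GMP, with means 0.75 ± 0.0508 and 0.86 ± 0.0627 (SD, n = 3), and did not overlap in GATA2-GMP, with means 2.12 ± 0.213 and 2.82 ± 0.441. The stages did not overlap in either genotype. No test is given for this score over chosen genes. From CPM per kb the GMP means were 1.06 ± 0.0532 and 1.21 ± 0.0465, with no overlap.

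The sum hid opposite movements within the mitochondrial pathway. Mthfd2 made up 10.6 ± 0.935% of the mitochondrial level per kb in GMP WT and 11.5 ± 0.53% in GMP KO, but 79.0 ± 2.94% in GATA2-GMP WT and 76.6 ± 4.16% in GATA2-GMP KO. Mthfd2 was the only mitochondrial member of the 3 that rose with stage in either genotype. The 2 hydroxymethyltransferases went the other way: the log2 ratio of Shmt2 to Shmt1 was 1.25 ± 0.0716 in GMP WT, 1.42 ± 0.0307 in GMP KO, -0.10 ± 0.357 in GATA2-GMP WT and 0.93 ± 0.353 in GATA2-GMP KO. It was higher in KO at both stages without overlap, and lower in GATA2-GMP than in GMP in both genotypes.

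The homologous pair Mthfd1l and Mthfd1 had similar count ratios in all groups. Their log2 ratio averaged 0.00, -0.07, -0.06 and -0.05 in the 4 groups, in the order above, with SDs of 0.0637 to 0.206 and overlap in each of the 4 comparisons. The log2 ratio of Mthfd2 to Mthfd1l went from -1.86 ± 0.131 in GMP WT and -1.52 ± 0.101 in GMP KO to 3.21 ± 0.249 in GATA2-GMP WT and 3.95 ± 0.218 in GATA2-GMP KO. Its values in KO lay above those in WT at both stages.

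**Figure D4:**
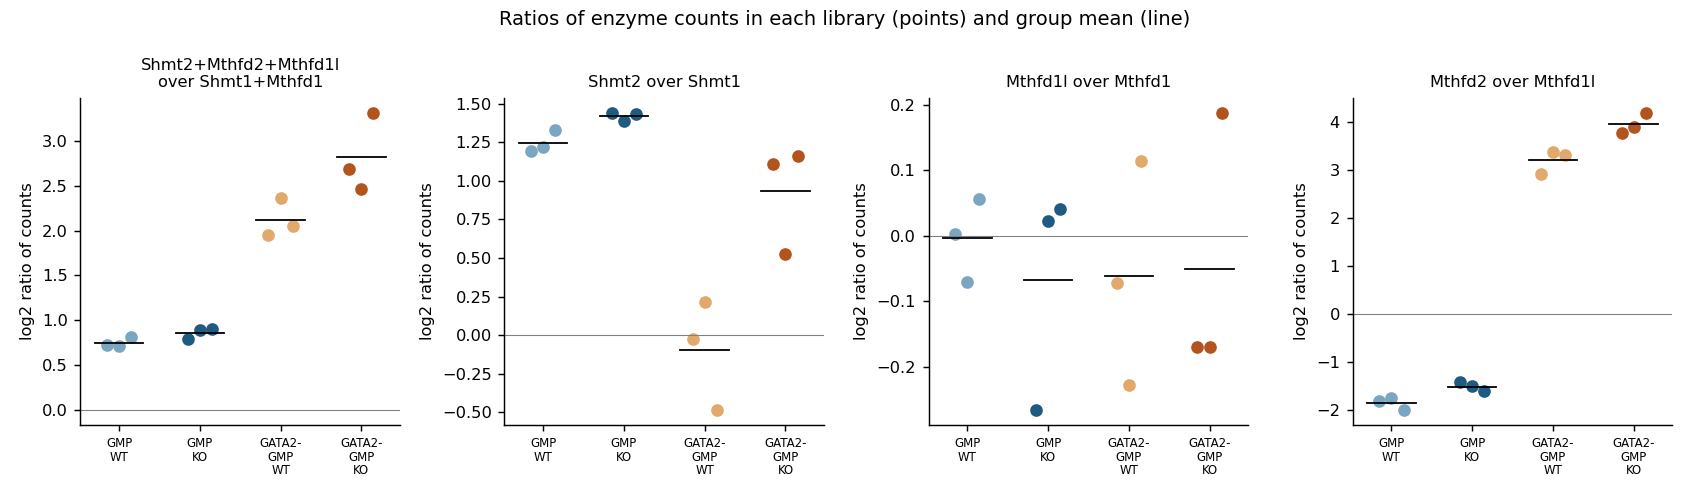
Log2 ratio of enzyme counts in every library (points) of the 4 groups, with the group mean as a line. The mean summed ratio is 0.75 in GMP WT and 2.82 in GATA2-GMP KO, Shmt2 over Shmt1 is lowest in GATA2-GMP WT at -0.10, and the means of Mthfd1l over Mthfd1 lie near 0.

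Promoters were read to show what sequence lies before the 4 members that DESeq2 called higher in KO in GATA2-GMP. The sequences are from RefSeq (GRCm38.p6), 120 bases directly upstream of the start site on the gene's strand, 5′ to 3′, with motif matches in capitals. In the mm9 models of GENCODE vM1, Asns lies at chr6:7625169-7643254, Mthfd2 at chr6:83255685-83267600, Phgdh at chr3:98117093-98143913 and Shmt2 at chr10:126954195-126959491, all on the minus strand.
Asns promoter, chr6:7693210-7693329, minus strand: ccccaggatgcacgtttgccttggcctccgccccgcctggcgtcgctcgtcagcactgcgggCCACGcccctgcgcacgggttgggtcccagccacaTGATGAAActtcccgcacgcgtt
Mthfd2 promoter, chr6:83317605-83317724, minus strand: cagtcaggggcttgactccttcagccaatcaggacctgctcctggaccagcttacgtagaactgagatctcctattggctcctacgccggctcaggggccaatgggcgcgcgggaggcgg
Phgdh promoter, chr3:98339970-98340089, minus strand: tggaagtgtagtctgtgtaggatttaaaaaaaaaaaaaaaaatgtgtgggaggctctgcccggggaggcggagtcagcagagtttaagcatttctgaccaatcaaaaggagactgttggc
Shmt2 promoter, chr10:127522445-127522564, minus strand: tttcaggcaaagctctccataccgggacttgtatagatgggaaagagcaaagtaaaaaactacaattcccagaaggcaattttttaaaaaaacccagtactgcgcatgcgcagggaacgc

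The motifs were searched on both strands of the 250 bases before each start site, in 11 promoters of the members, Psat1 having 2. TGATGNAA, the core of the C/EBP-ATF response element that ATF4 binds, was found in the Asns promoter alone, 23 to 16 bases before the start site, and in 3.45% of all 32851 promoters of the table. TGACGTGG, a core of the element that XBP1 binds, was in none of the member promoters and in 0.563% of all. CCACG, the last part of the ER stress element, was in 8 of the 11 and in 28.3% of all, and every match of TGACGTGG also holds CCACG on its opposite strand. These matches describe letters in a window, not binding sites.

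Other genes of the pathways were taken from lists chosen with earlier results known. Among folate and one-carbon genes, 21 of 23 were tested in GMP, and edgeR called none higher and Slc19a1, the reduced folate carrier, lower (log2 fold change -0.35, SE 0.066, adjusted p = 0.0100), with a list median of -0.04. In GATA2-GMP none was called by edgeR or DESeq2, and 2 of 21 were higher at an unadjusted p under 0.05, as were 6.59% of all genes. Of the 21, 15 lay above 0, and the median was 0.24.

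Among genes of serine and glycine use and transport, the amino acid transporters Slc1a5 and Slc38a1 fell in GMP (log2 fold change -0.37, adjusted p = 0.00267, and -0.24, adjusted p = 0.0401), and none rose. The Slc38a1 call was lost without any 1 library other than GMP WT 1 (adjusted p from 0.0543 to 0.156) and with library totals as the scale (-0.20, adjusted p = 0.101). Slc6a9, the glycine transporter GLYT1, was called in GATA2-GMP, where 0.103% of all genes were called higher. It had 16.0 ± 1.58 CPM in WT, against 43.8 ± 7.80 CPM in KO (log2 fold change 1.45, SE 0.23, adjusted p = 0.0433), and missed the threshold without any 1 library other than GATA2-GMP WT 3 (adjusted p from 0.0710 to 0.301). In GMP its log2 fold change was 1.06 (adjusted p = 0.0850), and with the replicate block 1.12 (adjusted p = 0.0209). The list medians were 0.00 in GMP and 0.06 in GATA2-GMP, over 14 of 17 genes in each. In GATA2-GMP 6 of the 14 were higher and 1 lower at an unadjusted p under 0.05, against 6.59% and 8.31% of all genes. KO libraries lay wholly above WT libraries in 5 and wholly below in 3, against 10.2% and 12.3% of all genes.

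Among asparagine, aspartate, glutamate and proline genes, 16 of 17 were tested in each stage. Oat, which links ornithine with glutamate and proline, fell in GMP from 114 ± 1.47 to 73.8 ± 6.20 CPM (log2 fold change -0.64, SE 0.060, adjusted p = 6.34e-05). In GATA2-GMP it had 298 ± 28.2 CPM in WT, against 186 ± 28.4 CPM in KO (log2 fold change -0.68, adjusted p = 0.207), opposite in sign to Aldh18a1. No gene of this list was called higher in GMP by edgeR or DESeq2, and 4 were higher at an unadjusted p under 0.05, as were 6.78% of all genes. With the replicate block 3 were called higher, as were 3.30% of all genes. In GATA2-GMP edgeR called none. There 5 were higher and 2 lower at an unadjusted p under 0.05, against 6.59% and 8.31% of all genes. DESeq2 called 1 higher, as it did 2.23% of all genes. The medians were 0.06 in both stages.

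Among 29 regulators and other targets of ATF4, Atf4 mRNA itself did not pass the test in either stage (log2 fold change -0.10, adjusted p = 0.528 in GMP and 0.15, adjusted p = 0.823 in GATA2-GMP). Its levels were 281 to 345 CPM in GMP WT and 288 to 299 CPM in GMP KO. After transduction they were 383 to 572 CPM in WT libraries and 476 to 658 CPM in KO libraries. Ddit3, which encodes CHOP, was at 8.17 to 12.2 CPM in all 6 GMP libraries, 53.1, 156 and 81.6 CPM in GATA2-GMP WT and, in KO, 273, 252 and 355 CPM (log2 fold change 1.6, SE 0.37, adjusted p = 0.121 by edgeR and 0.00161 by DESeq2). Without GATA2-GMP WT 2, its highest WT library, edgeR called it (adjusted p = 0.0496). Ddit3 and Asns thus had the same WT libraries as lowest and highest.

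In GMP 3 genes of this list rose and 2 fell out of 25 tested, where 0.658% of all genes rose and 2.52% fell. Trib3, a pseudokinase that restrains ATF4 and CHOP, rose from 0.162 ± 0.0659 to 1.10 ± 0.597 CPM (log2 fold change 2.69, SE 0.56, adjusted p = 0.0226), a call lost without GMP WT 1, GMP WT 2, GMP WT 3 or GMP KO 3 (adjusted p from 0.0640 to 0.103). Atf5, a relative of ATF4, rose from 12.2 ± 0.319 to 20.3 ± 2.38 CPM (log2 fold change 0.72, SE 0.095, adjusted p = 0.000736). Slc7a1, a cationic amino acid transporter, rose by 0.22 (adjusted p = 0.0494), a call lost without any 1 library other than GMP KO 2 (adjusted p from 0.111 to 0.182) and with RLE scaling (adjusted p = 0.0513). Eif2ak3, which encodes PERK, fell by 0.46 (adjusted p = 0.0405, lost without GMP WT 1, GMP WT 3, GMP KO 1 or GMP KO 2 at 0.0670 to 0.129), and Ppp1r15b, an eIF2-alpha phosphatase subunit, by 0.38 (adjusted p = 0.00632).

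In GATA2-GMP no gene of the ATF4 list was called by edgeR out of 27 tested, while 12 were higher and 3 lower at an unadjusted p under 0.05, against 6.59% and 8.31% of all genes. DESeq2 called 8 higher and 2 lower, against 2.23% and 2.62% of all genes. The median was 0.43, 19 of 27 lay above 0, and KO libraries lay wholly above WT libraries in 11, as in 10.2% of all genes. The summed level of the list was 2570 to 2680 CPM in WT and 3110 to 3210 CPM in KO. Trib3 had 19.2 ± 14.4 CPM in WT, against 113 ± 19.2 CPM in KO (log2 fold change 2.56, SE 0.52, adjusted p = 0.0800), and edgeR called it without GATA2-GMP WT 2 (0.0396) or GATA2-GMP WT 3 (0.0382). Eif2ak3 lay on the other side, at 30.6 ± 3.97 CPM in WT and 13.9 ± 1.41 CPM in KO (log2 fold change -1.14, SE 0.23, adjusted p = 0.0792), and was called without GATA2-GMP WT 3 (0.0411).

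A list of proliferation genes was read beside these. Its median was 0.01 in GMP and -0.05 in GATA2-GMP over 22 genes. Plk1, a mitotic kinase, rose in GMP (log2 fold change 0.37, SE 0.067, adjusted p = 0.00868), and no other gene of this list was called there. In GATA2-GMP edgeR called none. There 2 of 22 were higher and 2 lower at an unadjusted p under 0.05, against 6.59% and 8.31% of all genes. DESeq2 called 1 in each direction, against 2.23% of all genes higher and 2.62% lower.

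**Figure D5:**
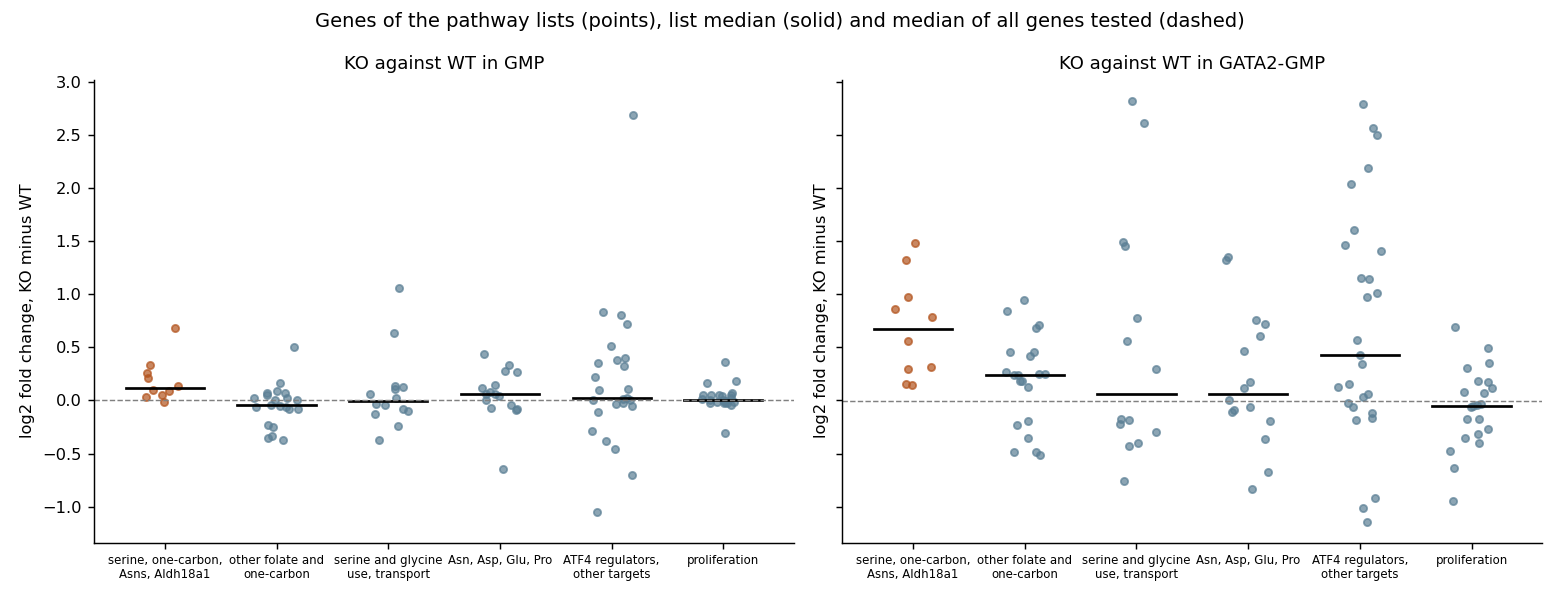
Log2 fold change of KO against WT for each tested gene (points) of the 10 enzymes and of the 5 pathway lists, in GMP and in GATA2-GMP, with the list median (solid line) and the median of all genes tested (dashed line). In GATA2-GMP the medians of the 10 enzymes (0.67) and of the ATF4 list (0.43) lie farthest above the dashed line, and the lists were chosen with earlier results known.

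The genes whose pattern over the 12 libraries was most like that of Phgdh, Mthfd2 and Asns were found by the root mean square difference of log2 CPM after centring each gene on its mean. For Phgdh they were Mrps22, Angptl4 and Det1, with differences of 0.14 to 0.18, and the nearest member was Shmt2 at 0.27. For Mthfd2 they were Slc18a2, Ctsd and Il18rap at 0.23 to 0.26, with Asns the nearest member at 0.51. For Asns they were H2-Aa, Crhbp and Gpr141 at 0.29 to 0.33. The libraries share stage, kit and depth differences, so these likenesses describe the 12 libraries only.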

How the data were processed

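Polyadenylated RNA of 12 libraries, 3 in each of 4 groups assigned by title, was analysed. The authors deposited 1 table of raw counts of reads per gene symbol for each library, judged to be counts from whole numbers with unequal sums. The submitters' processing notes list mm9 as the build and, among tools, HTSeq and DESeq, STAR 2.3.0 and SAMtools 0.1.14, without roles. Annotation, strand setting and read filters are not given in the sources used here. The 5 counter rows, 55.8 to 66.5% of records per library, were set aside. Dates stood in place of 27 gene names in the GMP tables. Of these, 23 were restored from the only name that fits and 4 were left out. No library repeated another.

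The test was that of edgeR 4.0.16, run in R 4.3.3 (filterByExpr, TMM, estimateDisp, glmQLFit with robust=TRUE, glmQLFTest), Benjamini-Hochberg adjustment over the genes tested in a comparison, and a threshold of 0.05. A positive log2 fold change means higher in KO, or higher in GATA2-GMP, and its standard error (SE) was taken as its size over the square root of F. Alternatives were DESeq2 1.42.0, other scalings, no filter, a replicate block, a fit over all 12 libraries and leaving out each library, and CPM per kb for the ratio, which was chosen after seeing the data. The test was checked on counts simulated with the same spread for every gene and stage. That check does not cover the unequal spread of the real libraries. With 3 libraries against 3, an exact permutation test of a single value cannot go below p = 0.10.

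In GMP, deviations from the group mean correlated between libraries of the same number (0.26, 0.19 and 0.13 across genes). The numbers were therefore taken to pair the libraries there, which the labels do not state. In GATA2-GMP (-0.13, -0.23 and -0.41) and between stages they were not. Libraries of unequal number reached 0.31 in GATA2-GMP, so values of this size do not by themselves show a pairing.

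CPM per kb used exon lengths from GENCODE vM1. Copies of transcripts were searched with BLAST+ 2.17.0 in the mm9 genome (at least 100 bases at 95% identity). All 10 members matched these models, and a RefSeq promoter was found for each.

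The members and gene lists were chosen with earlier results of these data known. Named besides the members were Atf4, Ddit3, Xbp1 and, from each list, up to 4 genes called in either genotype comparison per direction. Cell type markers were named as well, 3 of them called in GMP, and were chosen after their values were seen. Pc and Adgre1 were not found under these names. The remaining marker lists (summed CPM over libraries of GMP, then of GATA2-GMP) were mast cell and basophil (290 to 359, then 4840 to 13800), later neutrophil (16.2 to 141, then 37400 to 72700), monocyte and macrophage (1160 to 1550, then 2720 to 8190), erythroid and megakaryocyte (14.8 to 35.5, then 28.8 to 56.1, with Hba-a1 at 0) and lymphoid (28.1 to 32.3, then 44.7 to 88.7, with Ncr1 at 0).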

Additional observations from a re-analysis of the deposited data

How the results depend on the processing

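Of the 10 enzymes, the 8 stage calls in WT held in every alternative run, and the genotype calls depended on the method. In GMP edgeR called 381 genes and 2 members. With the replicate block these were 964 and 3, in a fit over all 12 libraries 17 and 0, and with 1 library left out 209 (without GMP KO 3) to 398 genes and 0 to 3 members. The block changed no other member's call than that of Asns. The calls of the pathway genes and markers named in GMP were also lost in the fit over all 12 libraries. In GATA2-GMP edgeR called 44 genes and 0 members. DESeq2 called 568 and 4, no filter gave 294 and 2, RLE scaling 1 member, the block 3 genes, the fit over all 12 libraries 1461 and 5, and leaving out 1 library 0 (without GATA2-GMP KO 1 or GATA2-GMP KO 3) to 525 genes (without GATA2-GMP WT 3) and 0 to 3 members. What the replicate numbers share in GATA2-GMP is not stated in the labels, and they were not taken to pair the libraries there. For the difference between stages the 11 genes became 821 with DESeq2 (2 members), 17 with RLE scaling, 40 with no filter, 0 with the block, and 0 (without GATA2-GMP KO 1) to 1179 (without GATA2-GMP WT 3) with 1 library left out (0 to 2 members).

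Library totals as the scale moved the share of calls that were higher from 20.7% to 36.2% in GMP, from 27.3% to 45.9% in GATA2-GMP (46.0% with DESeq2) and from 36.4% to 53.3% in the difference between stages. Without Shmt1 and Shmt2 the difference in mitochondrial to cytosolic ratio was 0.0184 for genotype in GMP, 2.95 for stage in WT and 3.63 for stage in KO, and from mean log2 CPM it was 0.97 and 1.42 for stage, where summed counts gave 0.11, 1.37 and 1.95.

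Some values changed sign. In GMP, Mthfd1l was 0.0279 with library totals and 0.00065 in the fit over all 12 libraries, and with 1 library left out it ran from -0.0658 to 0.0462, Phgdh from -0.0229 to 0.0615 and Ddit3 from -0.18 to 0.12. In GATA2-GMP, Slc38a1 was 0.0124 with library totals, and with 1 library left out it ran from -0.30 to 0.047, Atf4 from -0.0068 to 0.26 and Slc7a1 from -0.11 to 0.20. In the difference between stages, leaving out 1 library gave -0.0418 to 0.37 for Psph, -0.0875 to 0.49 for Shmt1, -0.0093 to 0.27 for Mthfd1 and -0.44 to 0.0292 for Xbp1. Between stages in WT, the called rise of Atf4 (0.68, adjusted p = 0.0158) became -0.17 (adjusted p = 0.401) with library totals and missed the threshold without GMP WT 2 (adjusted p = 0.0824) or GMP WT 3 (0.0634), and Aldh18a1, at 0.46 without a call, became -0.35. In KO the called rise of Atf4 (0.92) became 0.23 with library totals (adjusted p = 0.136). Library totals gave -0.60 for Shmt1 in KO, where no filter gave -0.0286, and leaving out 1 library gave Shmt1 -0.34 to 0.039 in WT and -0.22 to 0.27 in KO. The cause was not tested for any of these.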
